A study of Homo sapiens with 72 samples.

Results

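Long non-coding RNA (lncRNA) genes were compared between unstimulated cells of 2 human breast lines, MDA-MB-231 and MCF10A-M1 (M1). The first line comes from a breast cancer of the triple-negative class and has mesenchymal features. The second is an immortalized but non-malignant line of mammary epithelium. The comparison rests on 6 of the 72 libraries of the series, the 3 non-stimulated controls of each line. Genes entered when they reached 0.5 TPM in at least 3 of the 48 libraries of both lines, which 22921 of the 96411 listed genes did. TPM gives each transcript's part of a total after correction for its length, so levels can be compared between genes. The total here is that of the listed lncRNA genes alone, not of all RNA in the library.

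The controls had been held overnight without serum and received neither TGF-β nor SB431542. The other 42 libraries of M1 and MDA-MB-231 were given TGF-β (5 ng/mL) for 2, 8 or 24 h, or SB431542 (SB, 10 µM), an inhibitor of the type I TGF-β receptor kinase. The SB samples carry 0, 2, 8 and 24 h in their titles, and the first of them carry 0.5 h in the treatment field. They are called the earliest SB samples here. MCF10A-M2 (M2), the remaining line of the series, is an MCF10A derivative transformed with HA-Ras, and its 3 non-stimulated libraries are set beside the others as levels only. Every group had 3 libraries, described as biological triplicates of one line. M1 was maintained in DMEM/F12 with horse serum, epidermal growth factor, insulin, hydrocortisone and cholera toxin. MDA-MB-231 was maintained in DMEM with fetal bovine serum, so line and culture medium cannot be told apart. Fewer expressing cells and less RNA per cell cannot be told apart either.

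LncRNAs are transcripts with little or no coding capacity that can act on chromatin, on other RNAs or on proteins. As a class they are known for low levels and for expression restricted to certain cell types, more so than messenger RNAs. The genes carry identifiers of the NONCODE catalogue, and the files do not pair these with names or positions. The identifiers of 2 genes higher and 2 genes lower in MDA-MB-231 are therefore printed, and other genes are described by their values. Protein-coding markers of the lines were not analysed here, so the labelled cell types could not be checked by markers.

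On TPM as deposited, fewer lncRNA genes were listed at 0.5 TPM or more in MDA-MB-231 than in M1. The MDA-MB-231 libraries held 13661, 12575 and 11283 such genes, and the M1 libraries 16239, 15619 and 15771. The groups did not overlap, and the difference of means was −3370 genes (exact two-sided permutation p = 0.1, the smallest that 3 against 3 can give). At 10 TPM or more the counts were 2987 ± 268 in MDA-MB-231 and 3998 ± 44.6 in M1 (SD, n = 3 each). Counting every gene listed above 0, they were 22146 ± 1260 and 23034 ± 716, and the groups overlapped (exact permutation p = 0.4). Across genes on the log2 scale, Pearson's r was 0.953 to 0.966 between libraries of the same line. It was 0.819 to 0.835 between a library of M1 and one of MDA-MB-231. These values describe likeness only, since genes do not vary independently of each other. Read depth is unknown, since TPM keeps none. A fixed TPM limit is also stricter in libraries where a few genes take more of the total, as in MDA-MB-231 below. The counts of listed genes were not repeated under another scaling.

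A few abundant genes took a larger share of the lncRNA total in the MDA-MB-231 libraries. The 10 most abundant genes of each library took 74.1%, 72.3% and 78.7% of the TPM in MDA-MB-231 and 62.9%, 61.4% and 62.6% in M1. The leading gene was the same in both lines. It took 35.7%, 35.8% and 38.6% in MDA-MB-231 and 28.3%, 27.6% and 28.6% in M1. Of the 10 genes of highest mean in each line, 9 were shared. One of these shared genes had no stable level in either line. It stood at 74.9, 10400 and 21600 TPM in M1 replicates 1, 2 and 3 and at 43300, 12000 and 1.97 TPM in MDA-MB-231 replicates 1, 2 and 3. The ninth of M1 stood at 6080, 7190 and 7250 TPM there and at 0.0733, 0.188 and 0.225 TPM in MDA-MB-231. In the M2 controls this gene was also abundant, at 3070, 2820 and 3980 TPM. The tenth of MDA-MB-231 stood at 3900, 4470 and 3560 TPM there and at 308, 386 and 344 TPM in M1.

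Since TPM are shares of a fixed total, larger shares for these genes leave less for the rest. Counts of called genes are therefore given for the deposited TPM and, where stated, for TPM after median-of-ratios scaling, called rescaling below. There a library's values are divided by the median of their ratios to each gene's geometric mean over the libraries, taken over the 10781 genes listed above 0 in all 48. The divisors were 1.43, 1.38 and 1.4 in M1 and 0.984, 0.906 and 0.683 in MDA-MB-231. MDA-MB-231 replicate 3 stood lowest in this divisor and in its number of genes at 0.5 TPM or more, and highest in the share of the leading gene. Rescaling raised the difference between the lines by a median of 0.412 on the log2 scale, from a median over all tested genes of −0.47 as deposited to −0.10. Differences are MDA-MB-231 minus M1 in log2(TPM + 0.5) throughout, a scale that understates changes of genes at low levels.

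Many lncRNA genes differed between the lines, in both directions. On TPM as deposited limma called 11027 of 22921 genes (48.1%) at an adjusted p under 0.05, 2207 higher (9.63%) and 8820 lower (38.5%) in MDA-MB-231. Rescaled TPM gave 9767 calls, of which 4275 were higher (18.7%) and 5492 lower (24%). The share of calls that were higher was thus 20% as deposited and 43.8% rescaled. Removing the 10 most abundant genes from the total used for scaling put it at 38.1%, and quantile normalization put it at 50.6%. How far lower calls outnumbered higher ones in MDA-MB-231 therefore depended on the scaling. Over all tested genes, lower calls were the more numerous under each scaling but quantile normalization. That method gives all libraries one distribution of values, which favours a balance of directions. Under every scaling the tested genes were those chosen on TPM as deposited. Of these, 3893 reached 0.5 TPM only in M1 libraries and 1008 only in MDA-MB-231 libraries, which favours lower calls. The calls shared by both scalings were 2203 higher and 5492 lower genes, and in 47 genes the called direction turned from lower to higher with rescaling. The 3 libraries of one line lay wholly above or below those of the other for 2010 of the former and 5322 of the latter. Over all tested genes that was so for 10.9% in the upward and 40% in the downward direction.

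**Figure D1:**
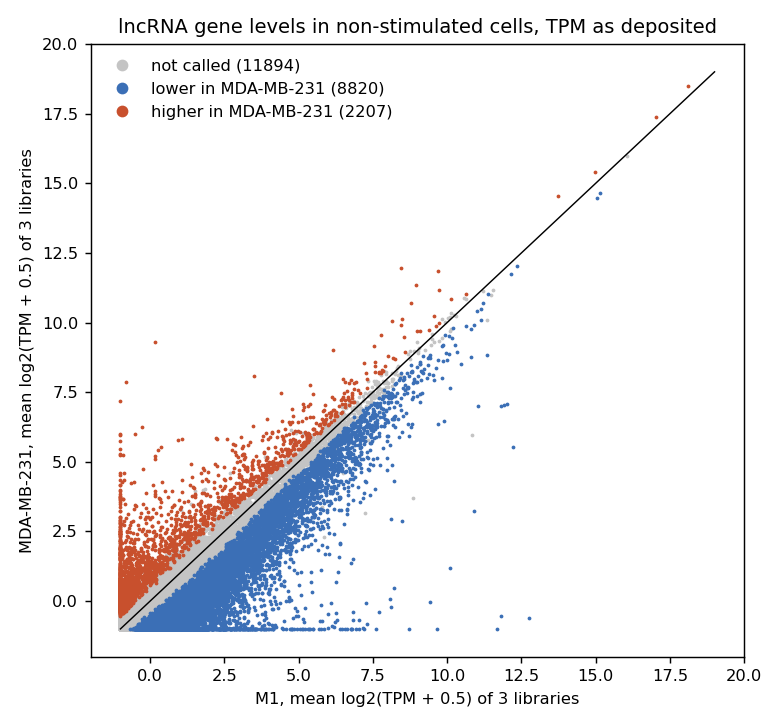
Mean level of each tested lncRNA gene in non-stimulated M1 (horizontal) and MDA-MB-231 (vertical), in log2(TPM + 0.5) over 3 libraries as deposited. Orange points are the 2207 genes called higher and blue points the 8820 called lower in MDA-MB-231, the black line marks equal levels, and points along the left and lower edges are genes listed at 0 in one line.

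The called differences were often large. As deposited, 7601 of the called genes differed by at least 1, 2107 by at least 2 and 232 by at least 4 on the log2 scale. After rescaling these numbers were 5923, 1424 and 188. Called genes were more frequent at higher levels. By mean TPM over the 6 libraries, 33.3% of 11350 genes under 1, 60.2% of 7978 genes from 1 to under 10, 68% of 3062 genes from 10 to under 100 and 69.7% of 531 genes at 100 or more were called. The median standard errors of these classes were 0.32, 0.327, 0.215 and 0.16. Their median absolute log2 differences were 0.519, 1.05, 0.809 and 0.656, on a scale that shrinks those of the lowest class most. What the steps in calls come from was not tested. Scaling decided the direction among abundant genes. At 100 TPM or more 78 genes were higher and 292 lower as deposited, but 243 were higher and 139 lower after rescaling. Among genes under 1 TPM, more were called lower than higher under both, 2776 against 998 as deposited and 1839 against 1401 rescaled.

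Some of the tested genes passed the filter through one line alone, so a difference in level is built into their choice. In this way 3893 genes reached 0.5 TPM only in M1 libraries and 1008 only in MDA-MB-231 libraries, and 18020 reached it in both. The filter kept 1014 genes that reached 0.5 TPM in exactly 3 libraries, and 1454 genes at that level in exactly 2 were left out. The genes are therefore described in groups, first those listed in one line and then those at 0.5 TPM or more in all 6 libraries.

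In 244 genes, 1.06% of those tested, every MDA-MB-231 control was at 0.5 TPM or more and every M1 control was listed at 0. The group was defined by that difference, so its calls carry no further information. Most of these genes were low, with a median of 1.78 TPM in MDA-MB-231 and 24 genes at 10 TPM or more. The other 21 libraries of each line were not used to form the group. In them 116 of the 244 genes were listed at 0 in every M1 library as well, and 47 reached 0.5 TPM in at least 1 M1 library. Summed over the group, the level was 1060 to 1330 TPM in the MDA-MB-231 controls and 886 to 1630 TPM in the 21 other MDA-MB-231 libraries. In the 21 other M1 libraries the sum was 8.67 to 17.8 TPM, or 0.701% to 1.44% of the mean of the MDA-MB-231 controls. A few genes carried the sum, with 470 to 545 TPM of it in the controls from the 10 leading genes. At 0.5 TPM or more in all 24 MDA-MB-231 libraries were 120 of the 244 genes.

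NONHSAG004166.2 led this group by its lowest library. It stood at 149, 146 and 145 TPM in the MDA-MB-231 controls and was listed at 0 in all 3 M1 controls, the property it was chosen by. In all 24 MDA-MB-231 libraries it lay between 94.3 and 297 TPM. It was above 0 in 2 of the 24 M1 libraries, at most at 0.51 TPM. The 9 genes ranked next had means of 20 to 63.6 TPM in MDA-MB-231 and at most 1.62 TPM in any M1 library. The gene ranked second stood at 55.1, 70.5 and 65.1 TPM in the MDA-MB-231 controls, yet its lowest MDA-MB-231 library was at 0.476 TPM. A listed 0 could also occur in a gene that other libraries of the line held at a high level. One such gene, singled out after its values were seen, stood at 594, 714 and 606 TPM in the MDA-MB-231 controls and at 5.23, 0 and 0 TPM in the M1 controls. It was above 0 in 21 of the 24 MDA-MB-231 libraries and listed at 0 in the others, and its highest M1 library was at 318 TPM.

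The opposite group, at 0.5 TPM or more in every M1 control and listed at 0 in every MDA-MB-231 control, held 603 genes, 2.63% of those tested. Their median level in M1 was 1.98 TPM, and 61 were at 10 TPM or more. In the 21 other libraries of each line, 262 of the 603 were listed at 0 in every MDA-MB-231 library too, and 76 reached 0.5 TPM in at least 1. The summed level was 8010 to 8550 TPM in the M1 controls and 5850 to 13100 TPM in the other M1 libraries. In the other MDA-MB-231 libraries it was 9.84 to 24.4 TPM, or 0.119% to 0.296% of the mean of the M1 controls. At 0.5 TPM or more in all 24 M1 libraries were 294 of the 603 genes.

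NONHSAG065460.1 led this group, at 3230, 3360 and 3280 TPM in the M1 controls and listed at 0 in all 3 MDA-MB-231 controls, again the property it was chosen by. Across the 24 M1 libraries it ranged from 1440 to 6160 TPM. It was above 0 in 9 of the 24 MDA-MB-231 libraries, at most at 0.334 TPM. The gene ranked second stood at 743, 857 and 824 TPM in M1, and its identifier number directly follows that of a gene described below. The 9 genes ranked next to the leading one had means of 107 to 808 TPM in M1 and at most 0.601 TPM in any MDA-MB-231 library. Outside the group the largest lower difference was that of the ninth most abundant M1 gene given above, with a log2 difference of −13.3 (SE 0.23, limma adjusted p 2.91e-35).

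**Figure D2:**
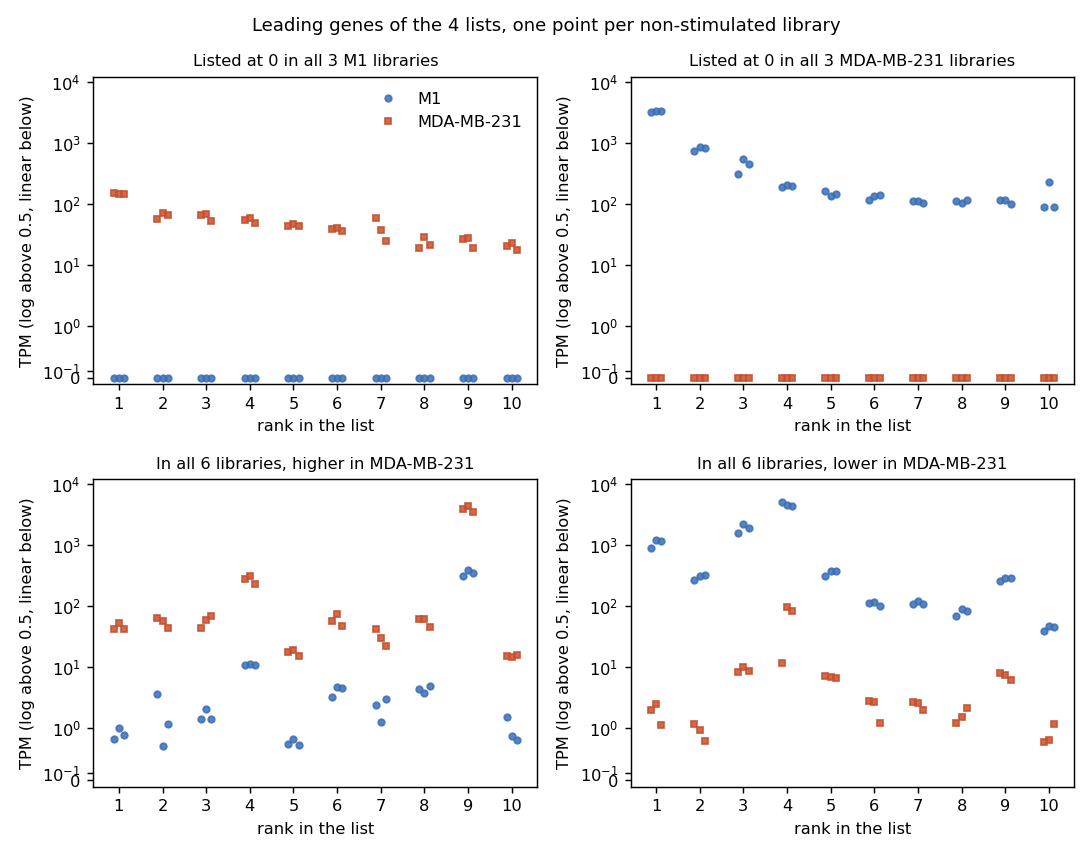
TPM of the 10 leading genes of 4 lists in each non-stimulated library, on an axis that is logarithmic above 0.5 TPM and linear below (circles M1, squares MDA-MB-231). The upper panels hold genes listed at 0 in one line, the lower panels genes at 0.5 TPM or more in all 6 libraries, and in every list the 3 libraries of one line lie apart from the 3 of the other, as the lists require.

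Among the 8452 genes at 0.5 TPM or more in all 6 libraries, the lines differed in degree. As deposited limma called 4711 of them (55.7%), 793 higher and 3918 lower in MDA-MB-231, with a median difference of −0.56 over all 8452. Over all tested genes the share called was 48.1%, as given above. With rescaling there were 4325 calls, 2377 higher and 1948 lower, with a median of 0.07. Large differences were found in both directions. At least 4-fold, or 2 on the log2 scale, there were 87 higher and 599 lower as deposited, and 224 higher and 184 lower after rescaling. In this group the balance of directions thus turned with the scaling. Not called and under 0.5 in absolute log2 difference were 2841 genes as deposited and 3274 rescaled, at a median standard error of 0.268 and 0.235. A gene that was not called is not shown to be equal in the lines.

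**Figure D3:**
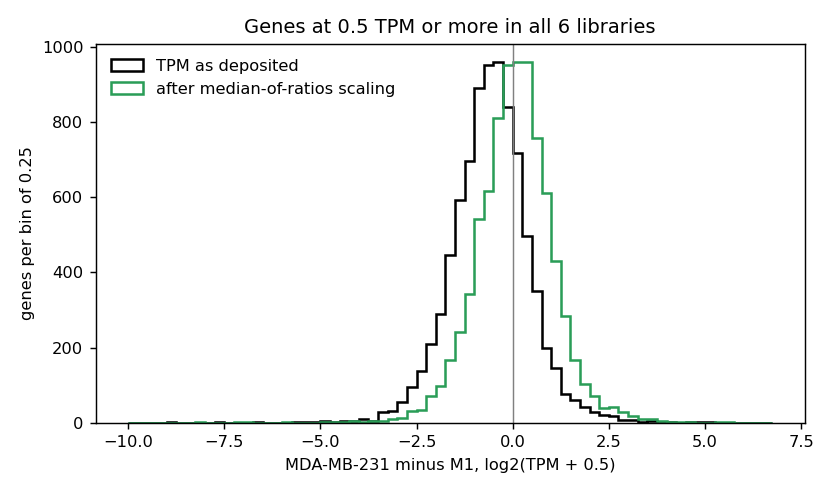
Distribution of the log2 difference between MDA-MB-231 and M1 over the 8452 genes at 0.5 TPM or more in all 6 libraries, as genes per bin of 0.25, for TPM as deposited (black) and after median-of-ratios scaling (green). The median moves from −0.56 to 0.07 with the scaling, while both tails remain.

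NONHSAG049978.3 had the largest difference among the genes that were higher in MDA-MB-231 and at 0.5 TPM or more in all 6 libraries. It stood at 42.5, 53.7 and 41.6 TPM in MDA-MB-231 and at 0.651, 0.979 and 0.762 TPM in M1. The groups were far apart, with a log2 difference of 5.16 (SE 0.342, limma adjusted p 9.26e-16) and 5.67 after rescaling. The gene ranked second stood at 62.7, 57.7 and 43.2 TPM in MDA-MB-231 and at 3.66, 0.506 and 1.14 TPM in M1. The gene at rank 4 was measured more tightly, at 282, 310 and 228 TPM in MDA-MB-231 and 10.9, 11.2 and 10.7 TPM in M1 (log2 difference 4.57, SE 0.166). The most abundant of the 10, ranked ninth, is the tenth most abundant gene of MDA-MB-231 given above (log2 difference 3.52, SE 0.128, limma adjusted p 3.46e-24). Ranks 2 to 10 differed by 3.47 to 4.84 as deposited and by 4 to 5.4 after rescaling.

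NONHSAG011192.2 had the largest difference in the other direction under the same limit of 0.5 TPM. It stood at 915, 1240 and 1180 TPM in M1 and at 1.98, 2.5 and 1.11 TPM in MDA-MB-231. Its log2 difference was −8.91 (SE 0.387, limma adjusted p 1.35e-21), and −8.24 after rescaling. The gene ranked second stood at 265, 312 and 321 TPM in M1 and at 1.16, 0.94 and 0.618 TPM in MDA-MB-231. Its identifier number comes directly before that of the gene ranked second among those listed at 0 in MDA-MB-231. The gene at rank 3 stood at 1610, 2250 and 1910 TPM in M1 against 8.17, 9.9 and 8.48 TPM in MDA-MB-231. The gene at rank 4 was the most abundant in M1, at 5140, 4590 and 4480 TPM. Its MDA-MB-231 libraries disagreed, at 11.5, 97.7 and 83.4 TPM, and its standard error of 0.66 was the largest among the 10. Ranks 2 to 10 differed by −7.75 to −5.13 as deposited and by −7.12 to −4.47 after rescaling.

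The same contrast was then taken within each of the other conditions, beginning with the earliest SB samples. Their means are separate from those of the controls, but one estimate of the spread over all 48 libraries serves every contrast, so the calls are not independent. With the 6 control libraries fitted alone, limma called 9258 genes in the controls. In the earliest SB samples limma called 9421 genes (41.1%), 2547 higher and 6874 lower in MDA-MB-231. After rescaling it called 3965 higher and 4913 lower, and after quantile normalization 4509 and 4322. Of the 2207 genes higher in the controls, 1774 (80.4%) were called higher there, as were 5992 of 8820 (67.9%) lower. A call of opposite sign was made for 5 of the 11027. NONHSAG049978.3 differed by 4.65 (SE 0.342) and NONHSAG011192.2 by −9.57 (SE 0.387) in the earliest SB samples. Their limma adjusted p were 2.16e-14 and 1.27e-22. NONHSAG004166.2 and NONHSAG065460.1 were again listed at 0 in all 3 libraries of M1 and of MDA-MB-231, respectively. The levels of the former in MDA-MB-231 were 159 ± 10.8 TPM, and those of the latter in M1 3240 ± 129 TPM (SD, n = 3).

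Line differences were found under every agent and time. The share of tested genes called was 54%, 57.6% and 46.4% after 2, 8 and 24 h of TGF-β, and 46.8%, 53.9% and 46.5% after 2, 8 and 24 h of SB. In genes the range ran from 9421 in the earliest SB samples to 13213 after 8 h of TGF-β. After rescaling the lowest was 8878 and the highest 12252, in the same conditions. Called with one sign in all 8 matched conditions were 4830 genes, 915 higher and 3915 lower in MDA-MB-231. After rescaling 4278 genes were, 2014 higher and 2264 lower, and 915 higher and 2258 lower were so under both scalings. The means of the 8 contrasts come from separate libraries, while their standard errors come from the same 48. Called in the controls and with the same sign in no other condition were 374 genes. A call of opposite sign in at least 1 other condition was made for 160 of the 11027 genes. On TPM as deposited, 2188 of the 8452 genes at 0.5 TPM or more in all 6 controls had one sign throughout, 345 higher and 1843 lower. Over all 22921 tested genes 4830 did, as given above. The count for the 8452 is not given after rescaling, which turned the balance of directions of this group in the controls.

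**Figure D4:**
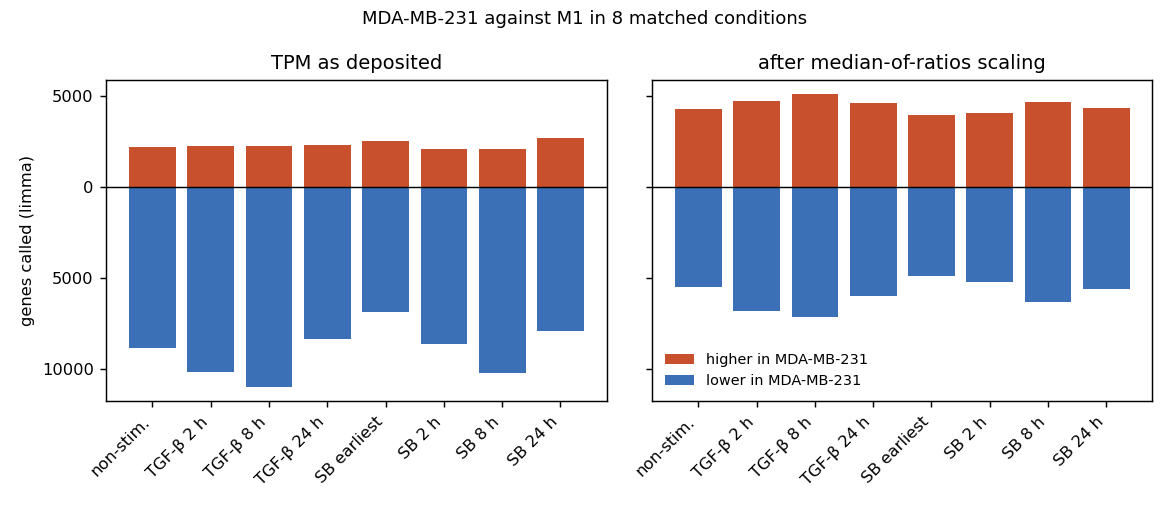
Number of lncRNA genes called higher (orange, upward) and lower (blue, downward) in MDA-MB-231 than in M1 in each of 8 matched conditions, on TPM as deposited (left) and after median-of-ratios scaling (right), with 3 libraries per line and condition. Lower calls outnumber higher ones in every condition, 8820 against 2207 in the controls as deposited and 5492 against 4275 after rescaling.

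On TPM as deposited, line accounted for more of the spread between libraries than agent and time did. Over the 48 libraries, the median share of a gene's variance that lay between the lines was 37.9% for all tested genes. A median of 23.8% lay between conditions within a line and 31.6% between replicates. For the genes at 0.5 TPM or more in all 6 controls the 3 medians were 45.1%, 25.7% and 23.6%. These shares are descriptions on TPM as deposited, where a shift common to many genes adds to the share of line. They were not computed after rescaling. All tested genes include those that passed the filter through one line alone.

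Whether TGF-β changed the line difference was tested as an interaction, the difference after 24 h of TGF-β minus that in the controls. Limma called 1004 genes (4.38%), and the MDA-MB-231 minus M1 difference rose in 574 and fell in 430. After rescaling it called 1754 genes, 926 and 828. With the 10 most abundant genes removed from the total, 318 rose and 886 fell, so this split depended on the scaling. Of the 702 genes that were also called in the controls as deposited, the difference narrowed in 473 and widened in 193. After rescaling it narrowed in 660 and widened in 479 of 1180, so this balance moved with the scaling. In 68 of the 702 a difference of opposite sign was called at 24 h, and some of these are also counted as narrowed. The control libraries enter both sides of this test. Genes selected for a difference in the controls are thus favoured to narrow. How much of the narrowing this accounts for was not tested.

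NONHSAG049978.3 was among the genes whose difference narrowed. It had been chosen for its large difference in the controls, so a fall was favoured by the choice. In M1 it went from 0.798 ± 0.167 TPM in the controls to 4.01 ± 0.923 TPM after 24 h of TGF-β. In MDA-MB-231 it went from 45.9 ± 6.73 to 26.9 ± 7.32 TPM (SD, n = 3 each). Its line difference thus fell from 5.16 to 2.59 (interaction −2.57, SE 0.484, limma adjusted p 0.000827, and 0.000368 after rescaling). With SB the M1 level was 1.65 ± 0.998 TPM in the earliest samples and 0.0834 ± 0.117 TPM at 24 h, and the line difference at 24 h was 6.32 (SE 0.342).

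In NONHSAG065460.1 the M1 level was 3290 ± 65.2 TPM in the controls, 5720 ± 466 after 24 h of TGF-β and 1520 ± 102 after 24 h of SB. MDA-MB-231 was at 0.0668 ± 0.116 TPM and 0.16 ± 0.0631 TPM at those 24 h points. With MDA-MB-231 at or near 0 throughout, a change in the line difference of this gene cannot be told apart from the change in M1, and no interaction is given for it. The interaction of NONHSAG011192.2 had a limma adjusted p of 0.99.

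Among genes at 0.5 TPM or more in all 12 libraries of the test, the leading positive interaction belonged to a gene with higher means after TGF-β in both lines. It went from 84.2 ± 11.9 to 229 ± 31.6 TPM in M1 and from 4 ± 1.89 to 112 ± 17.7 TPM in MDA-MB-231 (interaction 3.3, SE 0.36, limma adjusted p 7.89e-08). The leading negative one belonged to a gene at 13.6 ± 14.6 TPM in the M1 controls and 88.7 ± 6.96 TPM after TGF-β, with a wide spread between the M1 controls (interaction −3.9, SE 1.01, limma adjusted p 0.0175). The next gene went from 77.7 ± 12.4 to 137 ± 2.57 TPM in M1 and from 26.7 ± 4.24 to 7.11 ± 1.2 TPM in MDA-MB-231 (interaction −2.66, SE 0.245, limma adjusted p 2.36e-09).

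**Figure D5:**
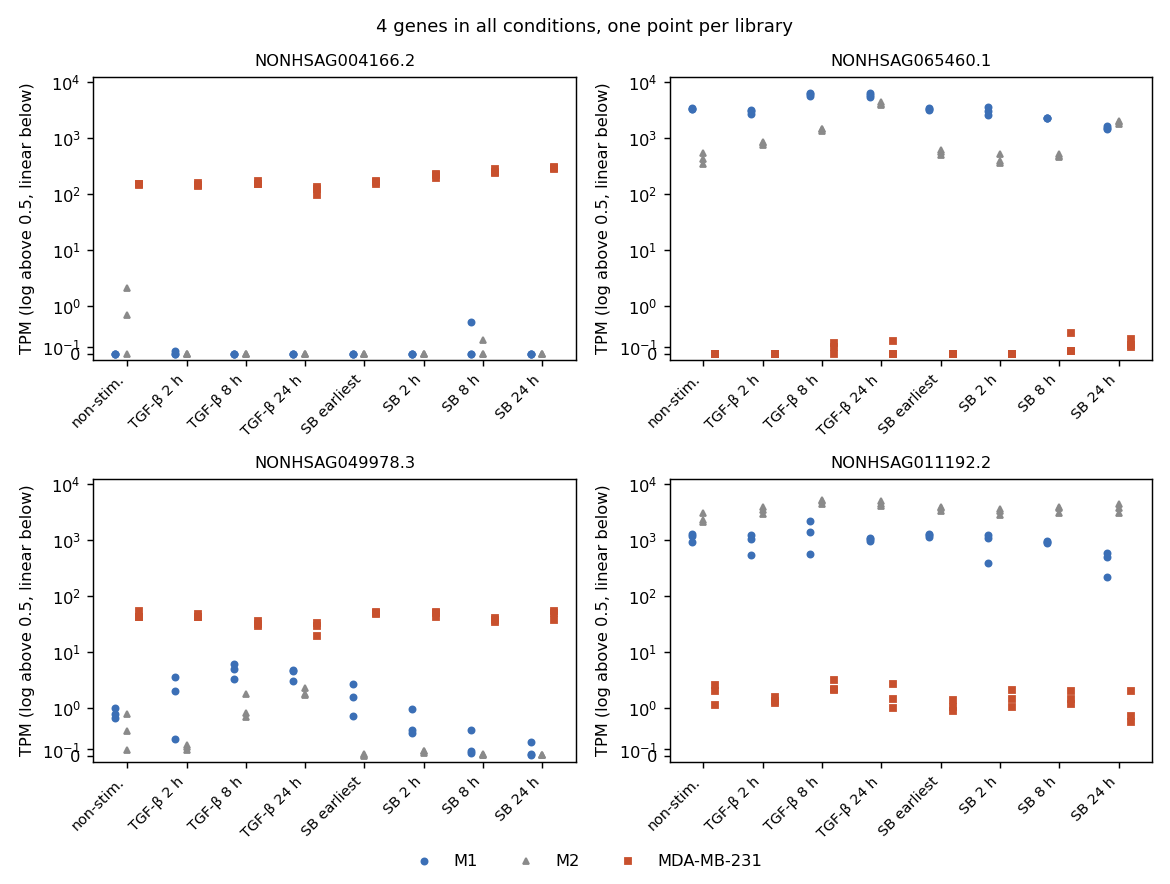
TPM of the 4 genes printed by identifier in every library of M1 (circles), M2 (triangles) and MDA-MB-231 (squares), by agent and time, on an axis that is logarithmic above 0.5 TPM and linear below. In all 8 conditions the M1 and MDA-MB-231 libraries stay apart for each gene, closest for NONHSAG049978.3 after 24 h of TGF-β, at 4.01 ± 0.923 TPM in M1 and 26.9 ± 7.32 TPM in MDA-MB-231.

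Levels in non-stimulated M2 were set beside both lines for the genes called under both scalings and without overlap. For 90.4% of the 2010 higher genes the mean log2 level of M2 lay nearer to M1 than to MDA-MB-231, or beyond M1. In 1165 of them M2 was counted as beyond M1, and in 653 as between the lines but nearer to M1. For 519 of the 2010 genes M1 was listed at 0 in all 3 controls, so M2 could not lie below it there. Where M2 was also at 0 in all 3 controls, as in 140 genes given below, the 2 lines were equal. Such genes are among the 90.4%. For the 5322 lower genes that share was 64.7%, with 633 beyond M1 and 2810 nearer to it. No such share is given over all tested genes or after rescaling. M2 and M1 derive from MCF10A, and no test was made between M2 and the other lines here. NONHSAG011192.2 stood at 2220, 2100 and 2960 TPM in M2, above all 3 M1 controls. NONHSAG065460.1 stood at 408, 335 and 524 TPM, below all M1 and above all MDA-MB-231 controls. NONHSAG049978.3 stood at 0.772, 0.402 and 0.0874 TPM in M2. Of the 603 genes listed at 0 in the MDA-MB-231 controls, 320 were at 0.5 TPM or more in all 3 M2 controls and 32 were at 0 in all. Of the 244 genes listed at 0 in the M1 controls, none was at 0.5 TPM or more in all 3 M2 controls and 140 were at 0 in all. The M2 controls differed among themselves here, with 59, 58 and 28 of the 244 genes above 0 in replicates 1, 2 and 3. The 10 leading genes of the 244 summed to 5.54, 7.94 and 0 TPM in these 3 libraries, against 470 to 545 TPM in the MDA-MB-231 controls. The source of this signal was not tested.

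Genes with consecutive identifier numbers were often called in the same direction. Among 9136 such pairs of tested genes both members were called in 2402, where 48.1% of all tested genes were called. In 88.1% of these 2402 pairs the members had the same sign. Since only 20% of all calls were higher, most pairs of called genes would share a sign in any order. After rescaling, when 43.8% of calls were higher, 82.4% of 1821 such pairs had the same sign. The longest runs of consecutive numbers were 9 lower and 5 higher genes. In 1 run of 9 the summed level was 111 ± 15.7 TPM in M1 and 14.5 ± 5.54 TPM in MDA-MB-231, with all differences between −3.32 and −1.33. After rescaling 8 of its 9 genes were called lower. In the other run of 9 the sums were 148 ± 20 and 44.5 ± 15.2 TPM, and 4 genes were called lower after rescaling. A run of 4 higher genes summed to 55.1 ± 19.8 TPM in the MDA-MB-231 controls and to 0 in all 24 M1 libraries. Positions were not used here, so whether such genes neighbour or overlap each other on the genome is not known from these data. The genes of a run may therefore not be separate observations.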

How the data were processed

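Total RNA was isolated with TRIzol and sequenced on the Illumina platform, per the labels' protocols. The tools named by the submitters' processing notes are HISAT2 2.2.0, StringTie 1.3.6, cutadapt 2.10 and FastQC, with GRCh38 as the build. The strand setting, parameters and annotation are not stated in the sources used here, so antisense or overlapping genes cannot be told apart. The values deposited by the authors are TPM of 96411 lncRNA genes, and in each library they add up to the full TPM total over these genes alone. No column was identical to another, and 0 identifiers matched the reference tables.

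Values of log2(TPM + 0.5) were fitted with limma 3.58.1 (eBayes with trend) in R 4.3.3 over all 48 libraries of M1 and MDA-MB-231 (16 groups, 32 residual degrees of freedom). P-values were two-sided and adjusted by Benjamini-Hochberg over 22921 genes, with calls under 0.05. Nothing shows that the triplicates were separate cultures beyond the word biological, so p-values measure the spread between these samples. Genes named are, per direction, the leading gene listed at 0 in the other line (by its lowest library) and the leading gene at 0.5 TPM or more in all 6 libraries (by absolute difference), both called under 2 scalings without overlap. Members and groups were chosen with earlier results of these data known. Other settings covered pseudocounts, filters, scalings, a replicate block, the fit's libraries and leaving out single libraries.

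On simulated tables of the non-stimulated comparison (22921 genes) with 5000 changed genes, 97.1% of changes of 2, 65.6% of 1 and 19.7% of 0.5 on the log2 scale were called, with 148 false calls. With 200 changed genes the shares were 90.9%, 32.8% and 2.99%. The changed genes were drawn only from those with a mean of at least 1 TPM over the 48 libraries. The shares therefore do not cover genes at lower levels. Signs were drawn at random, without a shift common to many genes such as the scaling makes in the data. Deviations from the group means were shuffled within each gene. Those that many genes of one library share were therefore not kept, and the false calls do not cover them.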

Additional observations from a re-analysis of the deposited data

Results flagged for a closer look

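The line difference of NONHSAG049978.3 changed over 24 h of TGF-β by −2.57 on the log2 scale (SE 0.484, limma adjusted p 0.000827), as a test of the difference between conditions. At 24 h of TGF-β all 3 M1 libraries lay above all 3 M1 controls, and all 3 MDA-MB-231 libraries lay below all 3 MDA-MB-231 controls. The gene was chosen for its large difference in the same controls, so a fall is favoured by the choice. The p-value does not allow for that.

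The 10 leading genes listed at 0 in the M1 controls were also looked for in M2, which enters no test here. Their summed level was 5.54 TPM in non-stimulated M2 replicate 1 and 7.94 TPM in replicate 2, and 0 in replicate 3. These sums are 1.08% and 1.54% of the mean sum of the MDA-MB-231 controls. In each of replicates 1 and 2, 9 of the 10 genes were above 0. In the 21 other M2 libraries the sum was at most 0.72 TPM and at most 2 of the 10 genes were above 0. The levels of M2 replicates 1 and 2 given above for genes of MDA-MB-231 include this signal, as do the means that place M2 beside both lines. Its source was not tested.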

How the results depend on the processing

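Counts under other settings follow, against 11027 genes called in the controls, 2207 higher and 8820 lower. With a mean of at least 1 TPM, a filter that tests fewer genes, there were 7325 calls, 1255 of them higher. Higher and lower counts moved with the scaling: median-of-ratios gave 4275 higher and 5492 lower, leaving out the 10 most abundant genes from the total gave 3626 higher, and quantile normalization 4875 higher and 4761 lower. Among genes at 0.5 TPM or more in all 6 libraries (793 higher, 3918 lower) these settings gave 2377 and 1948, 1784 and 2050, and 2514 and 1874. The interaction count of 1004 became 1754 with median-of-ratios and 1769 with quantile normalization. The count of 4830 genes with one sign in all 8 conditions stayed within 1.5 times under its 14 alternatives (3954 to 4911), as did the 9421 of the earliest SB samples (6340 to 10063). Leaving out one control library gave 9467 to 10593 calls, 1835 to 2239 higher and 7228 to 8728 lower. It gave 632 to 839 higher and 3480 to 3989 lower genes among those in all 6 libraries, 4682 to 4813 with one sign in all conditions, and 771 to 914 interactions. Leaving out one earliest SB library gave 8103 to 8720 calls. The difference in listed genes was −3947 to −2758 without one library, on TPM as deposited only. NONHSAG049978.3 and NONHSAG011192.2 kept their call and direction under each of 15 alternatives. The difference of NONHSAG049978.3 ranged from 4.7 to 6.13 and that of the other from −9.2 to −8.24. Same-numbered libraries of the 2 lines deviated together little, with r of deviations of 0.0491, 0.0156 and −0.0137 across genes. Between libraries of unlike number r was −0.0413 to 0.0261. Whether the numbers pair the libraries cannot be settled by these values. With the replicate block there were 11108 calls in the controls, 2223 higher and 8885 lower, 805 and 3955 among the genes in all 6 libraries, 9506 in the earliest SB samples, 4911 with one sign throughout and 1047 interactions. Depth is unknown, so the limit it sets on low genes could not be measured.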
